A study of Homo sapiens with 10 samples.

Results

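A set of 442 of the 169637 counted H3K27ac regions carried the mark in untreated H1975 cells and had almost no reads in cells that had survived osimertinib. The regions were chosen by level alone. A member had at least 2 CPM (reads in the region over the library's column total, times 1000000) in all 3 DMSO libraries and under 0.5 CPM in all 3 osimertinib DTP libraries. In reads, under 0.5 CPM meant at most 4 in each osimertinib DTP library, and at least 2 CPM meant 18 to 21 or more in each DMSO library. Of the 81321 regions at 2 CPM or more in all DMSO libraries, 0.544% fell to this floor. The opposite rule, under 0.5 CPM in all DMSO and at least 2 CPM in all osimertinib DTP libraries, found 622 regions.

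NCI-H1975 is an EGFR-mutant lung adenocarcinoma line, and osimertinib is an inhibitor of mutant EGFR. The DMSO group was kept without drug for 21 days and then given DMSO for 3 days. Drug-tolerant persister (DTP) cells are those still alive after 24 days in 500 nM osimertinib, and the combination group had 21 days in 500 nM osimertinib and then 3 days with 150 nM AZD5153, a bivalent inhibitor of BET bromodomain proteins. Each group had 3 biological replicates of 1 cell line, and 1 input of sheared, unprecipitated chromatin was shared. The rule used the DMSO and osimertinib DTP libraries and left the combination libraries unused.

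Acetylation of lysine 27 of histone H3 marks active promoters and enhancers. Enhancers lie in introns or between genes, often far from the promoters they act on, and their acetylation varies between cell types and states more than that of promoters does. BET proteins bind acetylated histones through bromodomains and recruit the transcription machinery. ChIP-seq of a bulk culture measures an average, so fewer cells with the mark and less of the mark per cell cannot be told apart.

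Library totals over the counted regions were 6263443 to 10463351 reads, with the lowest in combination replicate 3, and 1870885 in the input. Libraries differed in how many regions they left nearly empty. Of all regions, 5.52%, 17.7% and 8.59% were under 0.5 CPM in DMSO replicates 1 to 3, 3.78%, 17.7% and 4.93% in osimertinib DTP replicates 1 to 3, and 14.5%, 17.6% and 21.3% in the combination. All 6 epithelial genes examined (EPCAM, KRT7, KRT8, KRT18, KRT19 and CLDN4) had an acetylated promoter in every library, from 5.16 to 85.2 CPM. Of the leukocyte, fibroblast and endothelial genes examined, PTPRC, CD3E, LYZ, DCN, LUM, PECAM1, VWF and TEK had no start-site region listed, and CD14, COL1A1, COL1A2, PDGFRB and CDH5 had one. Fibroblast genes with a region were higher in osimertinib DTP than in any DMSO library, with 1.72 to 5.63 CPM with DMSO and 11.1 to 26.1 CPM with osimertinib alone at PDGFRB, 4.86 to 10.6 and 16.4 to 34.5 CPM at COL1A1, and 0.86 to 4.04 and 4.37 to 7.23 CPM at COL1A2. In the combination they had 15.1 to 42.6, 9.34 to 27 and 1.68 to 27 CPM. CD14 had 3.83 to 4.19 CPM with DMSO, 3.02 to 4.52 with osimertinib alone and 5.79 to 8.3 in the combination, and CDH5 had 7.97 to 19.7, 16.9 to 25.1 and 10.3 to 26 CPM. Their part in the results was not tested.

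Of the 442 members, 3 overlapped a RefSeq promoter window, counted from 250 bases before to 50 bases after a start site. The same overlap was not computed for the other regions. All 3 windows belong to noncoding genes. They are printed because they are the promoter sequence in RefSeq that lost acetylation by this rule, in GRCh38.p14 and 5′ to 3′ on the strand of the gene. Capitals mark matches to the 13 motifs searched.

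The first window, of LINC02261, is chr4:27217229-27217528 on the plus strand, and its member overlaps 288 bases of it.
LINC02261: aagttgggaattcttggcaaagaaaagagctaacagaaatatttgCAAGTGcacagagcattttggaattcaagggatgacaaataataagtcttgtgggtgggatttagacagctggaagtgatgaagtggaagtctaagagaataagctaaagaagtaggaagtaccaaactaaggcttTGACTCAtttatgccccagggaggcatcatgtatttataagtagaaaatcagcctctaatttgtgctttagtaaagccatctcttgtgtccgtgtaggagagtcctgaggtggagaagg
The window of LOC105374434 is chr4:43330647-43330946 on the minus strand and lies wholly inside its member.
LOC105374434: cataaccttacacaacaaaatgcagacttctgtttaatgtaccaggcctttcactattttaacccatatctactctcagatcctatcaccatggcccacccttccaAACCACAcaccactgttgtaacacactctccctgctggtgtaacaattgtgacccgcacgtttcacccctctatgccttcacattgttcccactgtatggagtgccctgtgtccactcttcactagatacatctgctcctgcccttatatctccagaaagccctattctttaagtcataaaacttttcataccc
The window of LOC105372609 is chr20:37688187-37688486 on the minus strand, and its member overlaps 164 bases of it.
LOC105372609: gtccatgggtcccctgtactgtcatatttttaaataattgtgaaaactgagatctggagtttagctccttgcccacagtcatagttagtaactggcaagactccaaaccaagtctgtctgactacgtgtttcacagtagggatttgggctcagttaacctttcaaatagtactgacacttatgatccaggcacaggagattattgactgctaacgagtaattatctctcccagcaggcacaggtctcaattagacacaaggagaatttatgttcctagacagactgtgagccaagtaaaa

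The LINC02261 window held an AP-1 match (TGANTCA) starting 69 bases before the start site and an NKX2-1 match (CAAGTG) starting 205 bases before it. The LOC105374434 window held 1 RUNX match (TGTGGTT, read here on the other strand) that starts 144 bases before the start site. Among all 35116 RefSeq promoter windows of this length, 7.71% held the AP-1 letters, 11.5% the NKX2-1 letters and 4.27% the RUNX letters on either strand. The LOC105372609 window held none of the 13 motifs, which were searched on both strands. They were TGANTCA for factors of the AP-1 kind, CCGGAAG for factors of the ETS kind, GGAATG for factors of the TEAD kind, TGTTTAC for factors of the FOX kind, TGTGGTT for factors of the RUNX kind, AGATAAG for factors of the GATA kind. The others were TTGCNNCAA for factors of the C/EBP kind, CAAGTG for factors of the NKX2-1 kind, GGANTTTCC for factors of the NF-kappaB kind, GGGCGG for factors of the KLF and SP kind, AACNGGTT for factors of the GRHL kind, ACAATGG for factors of the SOX kind and CAGGTG for factors of the ZEB kind. Any overlap between motifs was allowed. The windows were poorer in G and C than promoters at large, with 40.3%, 44.7% and 42.0% against a median of 58.7%.

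The member at LINC02261 (chr4:27217241-27217742) had 2.34, 3.73 and 2.94 CPM in the DMSO libraries, 0.226, 0 and 0.336 with osimertinib alone and 0.298, 0.105 and 0.319 in the combination. The member at LOC105374434 (chr4:43330512-43331013) was higher in DMSO, at 7.87, 8.98 and 6.79 CPM. It had 0, 0.108 and 0.224 CPM in osimertinib DTP and 0.0994, 0.210 and 0 in the combination. The member at LOC105372609 (chr20:37688323-37688824) had 6.27, 12.4 and 11.1 CPM with DMSO, 0.452, 0.108 and 0.224 in the osimertinib DTP libraries and 0.497, 0.105 and 0.160 in the combination. At all 3 the combination libraries lay at the osimertinib DTP floor and below every DMSO library.

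MicroRNAs repress messenger RNAs that pair with their seed, bases 2 to 8 of the mature strand. The annotated table assigned members to MIR146A, MIR4798, MIR6072 and MIR4470, and the mature strands of the first 3 stand here with the seed in capitals, from RefSeq (GRCh38.p14).
hsa-miR-146a-5p: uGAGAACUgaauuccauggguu
hsa-miR-146a-3p: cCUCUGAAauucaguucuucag
hsa-miR-4798-5p: uUCGGUAUacuuugugaauugg
hsa-miR-4798-3p: aACUCACGaaguauaccgaagu
hsa-miR-6072: uCCUCAUCacacugcaccuuag
No 2 of these strands share a seed. MIR146A, which restrains NF-kappaB signalling, lies at chr5:160485352-160485450, and its members were 41.3 kb and 53.6 kb away. MIR4798 (chr4:7310450-7310524) lay 47.3 kb from its member and MIR6072 (chr10:2076019-2076089) 25.7 kb and 26.4 kb from its pair. The assignments are those of the annotated table, which gives a distance to a start site, and need not name the gene nearest by its bounds. By bounds, the nearest protein-coding gene of the members assigned to MIR146A was ATP10B. No measure of these microRNAs was used.

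The level of the whole set follows from the rule in the DMSO and osimertinib DTP libraries and is given as a description. The median member had 2.98, 4.59 and 4.07 CPM in DMSO replicates 1 to 3, and the highest in each library had 11.1, 24.4 and 20.9 CPM. In osimertinib DTP the medians were 0.339, 0.108 and 0.224 CPM. Members were weak among acetylated regions, with a median of 2.66 CPM in their lowest DMSO library against 5.32 CPM over the 81321 regions. DMSO replicate 1 was the lowest of its group at 327 of the 442.

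In the combination libraries, which the rule did not use, the medians were 0.298, 0.210 and 0.160 CPM. Summed over all members the level was 1514, 2415 and 2073 CPM in the DMSO libraries, 138, 58.9 and 119 with osimertinib alone and 138, 131 and 80.8 in the combination. The mean sum was 2000 ± 455 CPM with DMSO, 105 ± 41.3 CPM with osimertinib alone and 117 ± 31.3 CPM in the combination (SD, n = 3 each). The ranges of the osimertinib DTP and combination sums overlapped, and both lay far under DMSO.

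**Figure D1:**
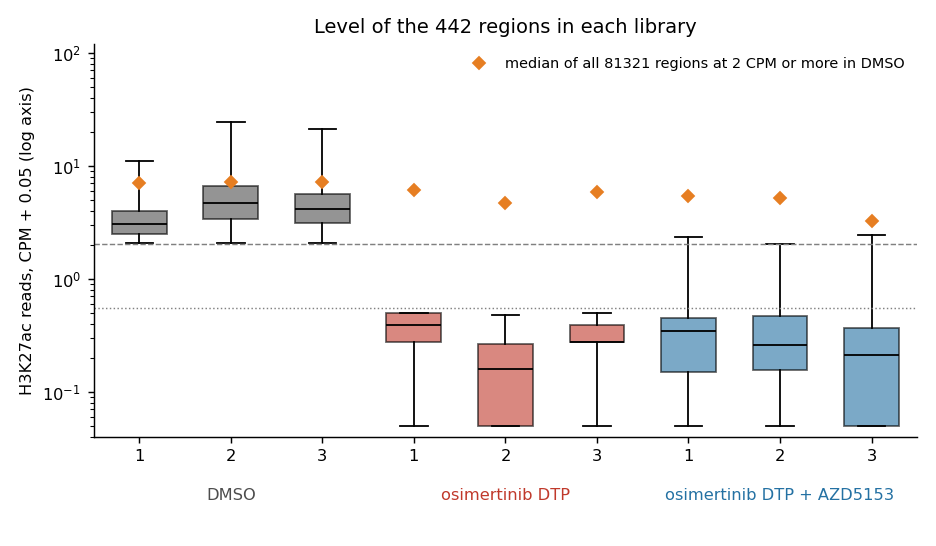
Level of the 442 silenced regions in each of the 9 libraries, as CPM + 0.05 on a log axis. Boxes span the quartiles with the median, whiskers run from the lowest to the highest region, diamonds are the medians of all 81321 regions at 2 CPM or more in DMSO, and the dashed and dotted lines stand at 2 and 0.5 CPM. The combination boxes sit at the level of the osimertinib DTP boxes, while the diamonds stay above 3 CPM in every library.

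Under 0.5 CPM were 380, 361 and 398 of the 442 members in combination replicates 1, 2 and 3, which is 86.0%, 81.7% and 90.0%. Among the 81321 regions the shares were 5.27%, 5.51% and 15.6%. In all 3 combination libraries together 297 members (67.2%) were under 0.5 CPM, against 2.12% of the 81321. Combination replicate 3 had the fewest reads, and without it the share was 72.9% of members against 2.98%. No member reached 2 CPM in all 3 combination libraries, and 2 did in any of them. By contrast, 41692 of the 81321 regions were at 2 CPM or more in all 3.

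The share was lower among the members that stood highest in DMSO. Split into 4 bins of about equal size by the lowest DMSO library, the members were under 0.5 CPM in all combination libraries at 68.5%, 75%, 66.1% and 58.7%, from the weakest bin to the strongest. At 2 to 3 CPM in the lowest DMSO library the share was 69.7% of 271 members and 5.17% of all 18840 regions of that band. At 6 to 11 CPM it was 48% of 25 members and 0.555% of 16575 regions.

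The rule was also applied without an osimertinib DTP library, choosing the regions with the other two, so that the library left out could be read. Chosen without replicate 1, 1204 regions passed, and 36.7% of them were under 0.5 CPM in replicate 1, where 1.27% of the 81321 regions were. Without replicate 2, 482 regions passed and 91.7% were under 0.5 CPM in it, against 7.49%. Without replicate 3, 861 passed and 51.3% were under 0.5 CPM, against 1.86%. The share was lowest in replicates 1 and 3, whose nearly empty regions were fewest. The regions chosen by the other two had a median of 0.678 CPM in replicate 1, 0.108 CPM in replicate 2 and 0.449 CPM in replicate 3 when that library was the one left out. In combination replicates 1 to 3, 72.3%, 73.3% and 87.6% of the regions chosen without osimertinib DTP replicate 1 were under 0.5 CPM. Without replicate 2 these shares were 84.0%, 78.8% and 87.55%, and without replicate 3 they were 77.8%, 71.5% and 85.95%. On these sets the combination shares were above those of left-out replicates 1 and 3 and below that of left-out replicate 2. For DMSO, 741, 506 and 475 regions passed without replicates 1, 2 and 3, and 59.6%, 87.4% and 93.1% of them had 2 CPM or more in the library left out. Of all counted regions 66.5%, 53.1% and 64.2% did, so the share in DMSO replicate 1 was below that of all regions.

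**Figure D2:**
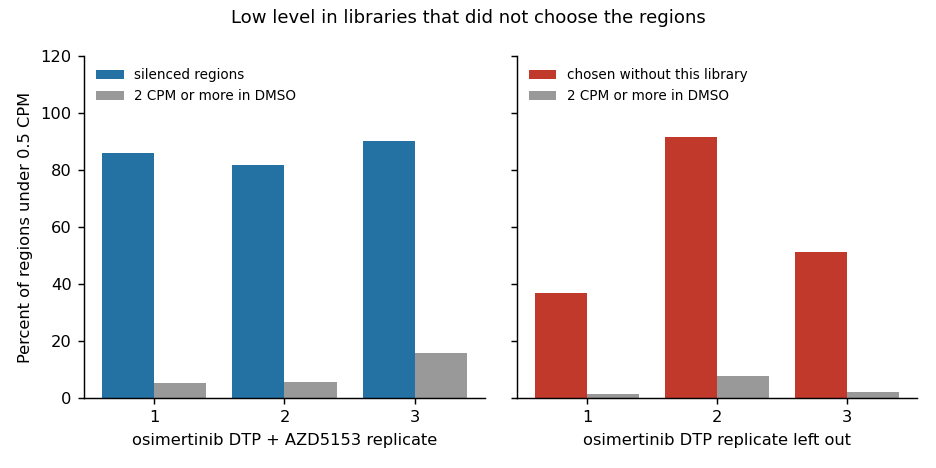
Percent of regions under 0.5 CPM in libraries that did not choose them. Left, the 442 silenced regions in the 3 combination libraries (blue, 81.7% to 90.0%) beside all regions at 2 CPM or more in DMSO (grey). Right, regions chosen without 1 osimertinib DTP library, read in that library (red, 36.7%, 91.7% and 51.3%), beside the same grey set. The blue and red bars are of different sets of regions.

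Next to the thresholds, members and non-members differed by a read. Members just inside the DMSO threshold had 2.01 CPM in their lowest library, at NHSL3 (chr1:32731067-32731568), EMP2 (chr16:10583908-10584409) and RASSF10 (chr11:13098768-13099269). Just outside, at 1.92 CPM, were regions near PUS7L (chr12:43738878-43739379), HMGA2 (chr12:65673504-65674005) and LOC107984449 (chr12:127052243-127052744). At the osimertinib DTP threshold, members near RPS6KA1, C1orf185 and USP24 had 0.452 CPM in their highest library, and regions near STK40, KIF21B and CUBN just outside had 0.540 CPM. Scaling the libraries by TMM (trimmed mean of M values, which corrects for composition) before the rule gave 499 regions, of which 316 were members.

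Against DMSO, the combination was lower at 416 of the 442 members and higher at none (edgeR quasi-likelihood test over all regions, Benjamini-Hochberg adjusted p under 0.05). Of the 157919 regions tested, 9.01% were lower by the same call. DMSO values chose the members as high, so the count describes them and is no independent test. The median log2 fold change was -3.86, and the range over members was -9.02 to -1.08. Over all regions the median was 0.23, and -0.02 without TMM. At 441 members (99.8%) all 3 combination libraries lay below all 3 DMSO libraries in CPM, against 21.8% of all regions and 35.9% of the 81321 regions at 2 CPM or more in DMSO. The exception lies near ID1 (chr20:31588817-31589318), with 3.08, 2.20 and 4.07 CPM in DMSO and 1.09, 0.210 and 2.39 CPM in the combination. The count of calls fell to 216 without DMSO replicate 2 and to 275 without DMSO replicate 3.

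Against osimertinib DTP, 0 of the 442 members were called in the combination in either direction, and 0% of the 157919 regions tested were. At an unadjusted p under 0.05 stood 17 members (3.85%, 11 higher and 6 lower) by edgeR, against 4.44% of all regions. DESeq2 also called 0 members, with 17 at an unadjusted p under 0.05 and no adjusted p for 90, and of the whole table it called 16 regions higher and 59 lower. Members entered this fit through their DMSO reads, since in a fit of the 6 treated libraries alone none passed the filter on low counts, and osimertinib DTP values chose them as low. The counts therefore describe the members and do not show that the treated groups were alike at them. The median log2 fold change was 0.18 over members and 0.06 over all regions. All 3 combination libraries lay above all 3 osimertinib DTP libraries at 16 members (3.62%, against 1.79% of all regions) and below them at 33 (7.47%, against 5.62%), where the 81321 regions gave 1.91% and 6.42%. Without combination replicate 3 still 0 members were called, and the lowest adjusted p was 0.0735 by edgeR. Over the whole table that fit called 103 regions higher and 95 lower, and 5.66% of members and 20.1% of all regions had an unadjusted p under 0.05.

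Osimertinib DTP against DMSO is the contrast that chose the members. The call was made at 437 of the 442, with 5.13% of all regions lower, and nothing is read from it.

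The authors called peaks in each library, from the same reads as the counts. Every member overlapped a peak of at least 1 DMSO library, 208 of them in all 3, and none overlapped an osimertinib DTP peak. Among the 81321 regions 95.9% overlapped a peak of at least 1 DMSO library, 56625 of them in all 3, and 80.5% an osimertinib DTP peak. By DMSO replicate, 54.5%, 94.6% and 83.7% of members overlapped a peak, against 80.6%, 87.1% and 84.0% of the 81321. The rule chose members on these reads, so their DMSO and osimertinib DTP counts are a description. In the combination lists 3, 1 and 0 members overlapped a peak in replicates 1, 2 and 3, where 69.7%, 68.1% and 51.9% of the 81321 regions did. Of these 4, 3 are named here, after their values were seen. The member inside ABCG2 (chr4:88162804-88163305), a drug efflux pump gene, had 2.98, 5.45 and 3.39 CPM with DMSO, 0.226, 0.432 and 0.224 in the osimertinib DTP libraries and 2.29, 1.58 and 0 in the combination. It was high in combination replicates 1 and 2 and at the floor in replicate 3. The other two named lie near MTAP and STX11 and are described with their groups.

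The members with the highest level in their lowest combination library are given next. No library was taken before AZD5153 was added, so whether they kept or regained reads was not measured. The member near STX11 (chr6:144130803-144131304, distal intergenic), a gene of vesicle fusion, had 3.19, 6.12 and 3.62 CPM in the DMSO libraries, 0.452, 0.324 and 0.336 with osimertinib alone and 1.49, 0.947 and 0.639 in the combination. All its combination libraries were above all osimertinib DTP libraries and below all DMSO libraries. Its log2 fold change in the combination was 1.59 ± 0.72 (SE) against osimertinib DTP and -1.88 ± 0.64 against DMSO, with edgeR adjusted p of 1 and 0.0489.

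The member near SPRY4 (chr5:142360918-142361419), a feedback inhibitor of receptor tyrosine kinase signalling, had 3.30, 3.54 and 2.60 CPM with DMSO, 0.452, 0.216 and 0.336 in the osimertinib DTP libraries and 0.596, 0.842 and 0.798 in the combination. Against osimertinib DTP its log2 fold change was 1.31 ± 0.76 and against DMSO -1.84 ± 0.69, with edgeR adjusted p of 1 and 0.0699. The member near CHST15 (chr10:124223665-124224166), a sulfotransferase gene, had 0.596, 0.526 and 1.12 CPM in the combination against 2.34, 3.63 and 3.73 in DMSO. The member inside WWTR1 (chr3:149678069-149678570), which encodes the coactivator TAZ, had 0.497, 0.842 and 0.958 CPM in the combination against 2.55, 4.78 and 2.38 in DMSO. All 3 stayed below every DMSO library and above every osimertinib DTP library.

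The member inside PTGES (chr9:129747290-129747791), a prostaglandin E synthase gene, had 2.76, 2.20 and 3.96 CPM in the DMSO libraries, 0.226, 0.324 and 0.112 with osimertinib alone and 0.497, 0.947 and 0.798 in the combination. The member near MDH2 (chr7:76075687-76076188), a mitochondrial malate dehydrogenase, had 2.23, 5.45 and 5.32 CPM with DMSO, 0.339, 0 and 0.449 in the osimertinib DTP libraries and 0.497, 0.526 and 0.958 in the combination. For the 6 members of this kind the log2 fold change against osimertinib DTP was 1.31 to 1.94, and none passed at an adjusted p under 0.05 by edgeR. Of the 6, those at STX11 and MDH2 were called lower than DMSO (edgeR adjusted p of 0.0489 and 0.0324). They were chosen by their combination level, so these values describe an extreme of the set.

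The members strongest in DMSO were also below every DMSO library in all treated libraries. Highest was a distal intergenic region between MSRB3 and HMGA2 assigned to LOC100507065 (chr12:65671154-65671655), with 10.6, 14.6 and 13.2 CPM in DMSO. It had 0.339, 0.108 and 0.336 CPM in osimertinib DTP and 0.298, 1.68 and 0.160 in the combination. Combination replicate 2 stood above the others, and all 9 libraries kept the groups apart from DMSO.

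Near the olfactory receptor gene OR4B1, the member chr11:48193649-48194150 had 9.78, 16.4 and 13.7 CPM in the DMSO libraries, 0.339, 0.108 and 0.449 with osimertinib alone and 0.0994, 0.526 and 0.160 in the combination. A member 127 kb from MTAP (chr9:21675320-21675821), a gene of methionine salvage, had 9.46, 16.9 and 14.1 CPM in the DMSO libraries and 0.339, 0.216 and 0.224 with osimertinib alone. In the combination it had 1.99, 0.736 and 0.160 CPM, so replicate 1 stood apart from the floor and replicate 3 did not. Its log2 fold change against DMSO was -3.59 ± 0.69 (edgeR adjusted p = 0.00317).

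Intronic members of genes for matrix and processing proteins were among these 12. The member in COL21A1 (chr6:56335347-56335848), a collagen gene, had 11.1, 15.7 and 9.28 CPM in DMSO and 0.0994, 0.210 and 0 in the combination. The member in PCSK5 (chr9:75993099-75993600), a proprotein convertase gene, had 9.04, 23.7 and 20.9 CPM in DMSO and 0.0994, 0.526 and 0 in the combination. In osimertinib DTP these were 0.452, 0.108 and 0.336 CPM and 0.339, 0 and 0.112 CPM. Both were at the floor in all 6 treated libraries but for PCSK5 in combination replicate 2, which was just over 0.5 CPM.

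Of the 12, the largest fold was at XYLT1 (chr16:17836572-17837073), 366 kb from the gene for the enzyme that starts glycosaminoglycan chains, with 7.34, 24.4 and 13.9 CPM in DMSO. It had 0.339, 0 and 0.449 CPM in osimertinib DTP and 0.0994, 0 and 0 in the combination, which is 1 read in the 3 libraries together. Its fitted log2 fold change against DMSO was -8.09 ± 1.07 (edgeR adjusted p = 0.00114) and depends on the prior count of the fit.

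The other members of the 12 lie in PUS7L and near LOC105369787, in SORCS2 (assigned to MIR4798), in MMP16, and in the cluster at MIR146A and ATP10B described next. Over the 12, the lowest DMSO library ran from 6.80 to 10.6 CPM and the log2 fold change of the combination against DMSO from -8.09 to -3.59, each called lower by edgeR. In the intron of PUS7L (chr12:43736982-43737483) the combination had 0.894, 0.631 and 0 CPM against 6.80, 11.2 and 7.01 in DMSO. In SORCS2, a receptor gene, the member chr4:7262688-7263189 had 7.02, 11.8 and 9.96 CPM with DMSO, 0.339, 0.108 and 0.336 in the osimertinib DTP libraries and 0.397, 0 and 0.479 in the combination.

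**Figure D3:**
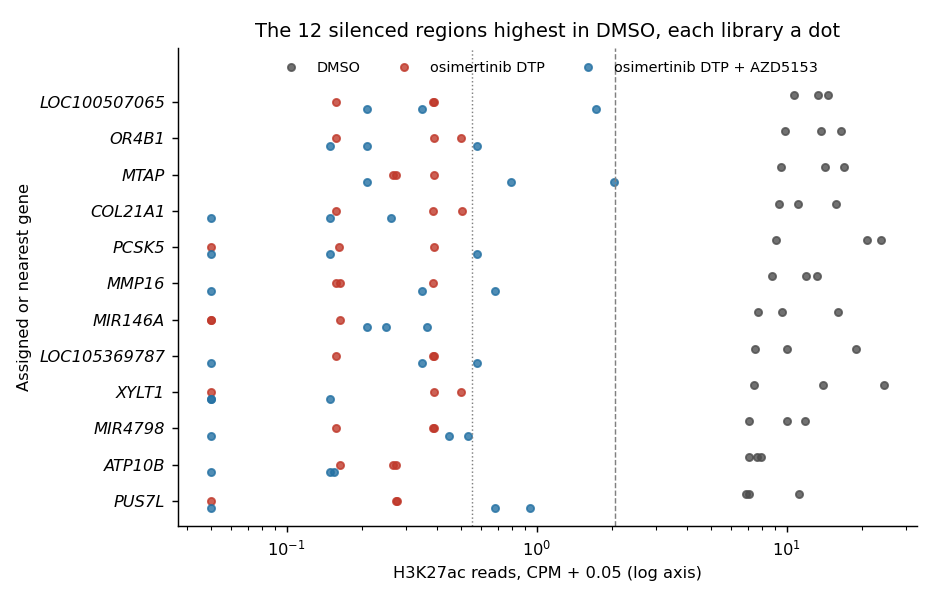
The 12 silenced regions with the highest level in their lowest DMSO library, 1 per gene, named by the assigned or nearest gene. Each dot is a library, the x axis is CPM + 0.05 on a log scale, and the dashed and dotted lines stand at 2 and 0.5 CPM. DMSO dots lie between 6.80 and 24.4 CPM, and the combination dots above 0.5 CPM number 1 or 2 at most in any row.

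Some members were neighbours. Chained at gaps of up to 25 kb, the 442 made 354 groups, of which 66 held 2 or more members and took in 154 members (34.8%). There were 50 groups of 2, 14 of 3, 1 of 4 and 1 of 8.

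The group of 8 spans chr5:160526784-160556936, a stretch of intergenic DNA that starts 41.3 kb past MIR146A and ends 6.18 kb before ATP10B, which encodes a lipid flippase. All 13 counted regions of the span had 2 CPM or more in every DMSO library, and the 5 that were no members had means of 0.298 to 0.596 CPM in osimertinib DTP. Summed over its 8 members the level was 33.2, 54.7 and 39.4 CPM in the DMSO libraries, 1.81, 0.648 and 1.23 with osimertinib alone and 1.29, 1.47 and 0.319 in the combination. The combination and osimertinib DTP ranges overlapped.

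The strongest member of this group (chr5:160539099-160539600, assigned to MIR146A) had 7.66, 16.1 and 9.50 CPM in DMSO. It had 0.113, 0 and 0 CPM in osimertinib DTP, which is 1 read in the 3 libraries together, and 0.199, 0.316 and 0.160 in the combination. The log2 fold change of the combination against DMSO was -5.34 ± 0.77 (edgeR adjusted p = 0.00114). Over the 8 members it ran from -6.20 to -3.33, each called lower with an edgeR adjusted p of 0.0205 or less.

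Outside the group the loss was not uniform. The region at the start of MIR3142HG, the host transcript of MIR146A, had a mean of 2.63 CPM with DMSO, 5.35 with osimertinib alone and 3.98 in the combination. Within the transcript, 2 regions had means of 3.08 and 3.51 CPM with DMSO, 0.672 and 0.703 with osimertinib alone, and 0.293 and 0.208 in the combination. So the acetylated start of the transcript stayed acetylated in all groups, with 1.92 to 9.39 CPM over the 9 libraries, while the intergenic stretch did not.

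**Figure D4:**
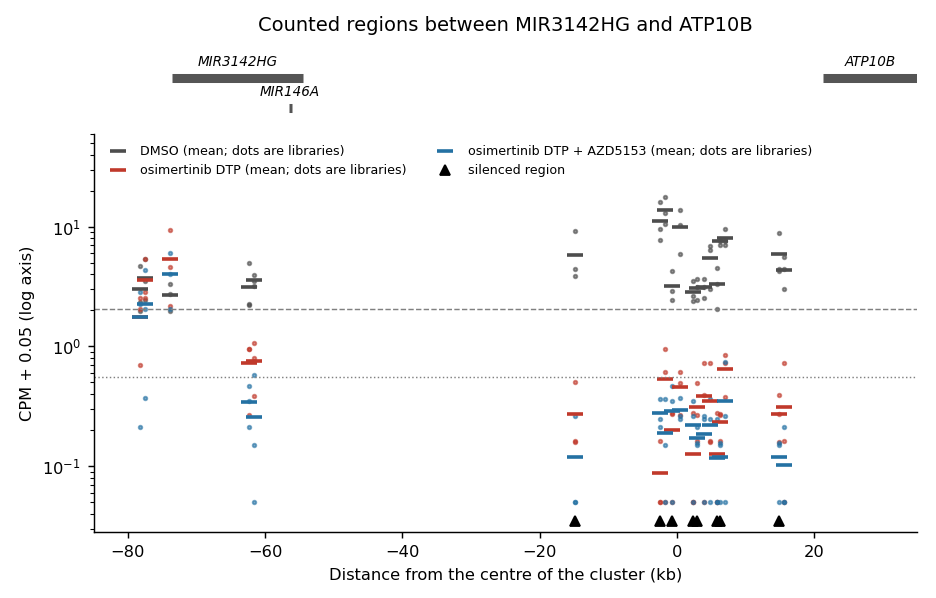
Counted regions from MIR3142HG to the edge of ATP10B by distance from the centre of the group of 8 (kb), as CPM + 0.05 on a log axis. Bars are group means, dots are libraries, triangles mark the silenced regions, and the dashed and dotted lines stand at 2 and 0.5 CPM. All 13 regions of the span have DMSO means above 2 CPM and treated means of at most 0.596 CPM, while the region at the MIR3142HG start keeps 2.63 to 5.35 CPM.

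The group of 4 lies at chr9:131810151-131814255, between MED27, a Mediator subunit gene, and RAPGEF1, an exchange factor for the GTPase RAP1. Its members summed to 21.5, 34.98 and 36.1 CPM with DMSO, 1.47, 1.08 and 0.897 in the osimertinib DTP libraries and 1.09, 0.842 and 3.35 in the combination. Here combination replicate 3 was the highest of the treated libraries, and it was the shallowest. All 4 counted regions of the span were members.

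Within the MMP16 gene, a membrane-bound matrix metalloproteinase, 3 intronic members at chr8:88237045-88240066 summed to 19.6, 29.7 and 30.9 CPM in DMSO. They had 0.452, 0.324 and 0.897 CPM in osimertinib DTP and 0.795, 0.736 and 0.639 in the combination. Between PTPRJ, a receptor phosphatase gene, and OR4B1, the 3 members at chr11:48192942-48194656 summed to 18.3, 31.1 and 27.5 CPM in the DMSO libraries, 0.904, 0.108 and 1.12 with osimertinib alone and 0.298, 0.947 and 0.639 in the combination.

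In each of these groups every DMSO library was above every treated library, and all their members were called lower in the combination than in DMSO by edgeR.

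Counted regions beside members that were no members themselves were lower too. Those centred within 2 kb of a member numbered 429, with a median log2 ratio of mean CPM (0.5 CPM added) of -2.29 for osimertinib DTP over DMSO and -2.49 for the combination over DMSO. At 2 to 5 kb the medians were -1.88 and -1.996 over 270 regions. At 5 to 10 kb they were -1.43 and -1.59 over 292, and at 10 to 25 kb -1.004 and -1.21 over 795, against 0.05 and 0.04 over all regions. The DMSO libraries are shared by both ratios and by the rule. All regions include those under 2 CPM in DMSO, and neighbours of other acetylated regions were not examined. The reference is thus an unlike set, and how far the loss spreads was not tested. Of the members, 25 had no other counted region within 25 kb.

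Promoters were rare among the members. The authors' annotated table held 104 of the 442 (23.5%), against 71.5% of the 81321 regions. Of those 104, 46 were intronic, 40 distal intergenic, 4 exonic, 4 in a 3′ UTR and 10 within 3 kb of a start site. Promoter classes thus made 9.62% of annotated members, against 48.4% of the 58147 annotated regions at 2 CPM or more in DMSO, and those within 1 kb made 2.88% against 39.0%. Intronic and distal intergenic regions made 44.2% and 38.5% of members, against 29.7% and 16.7%. Of the 238 annotated regions of the opposite rule, 7.98% were in promoter classes, and the difference from members was not tested.

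**Figure D5:**
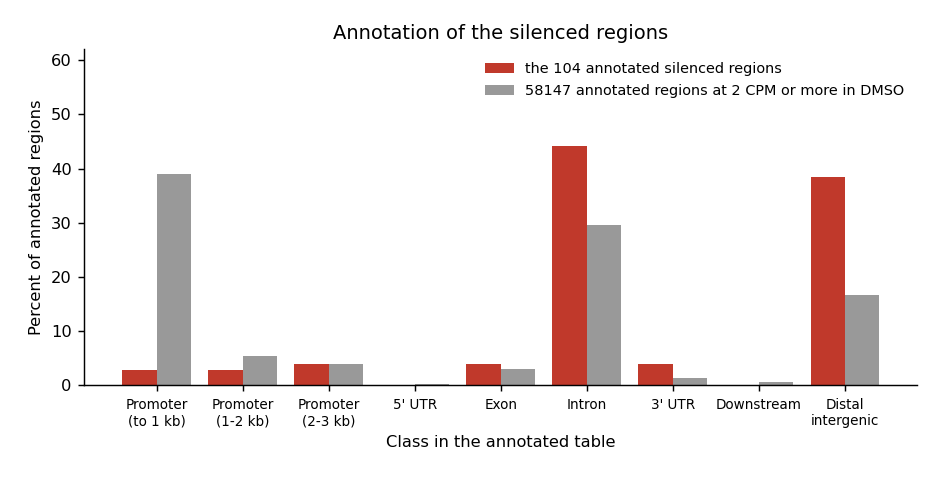
Annotation classes of the 104 annotated silenced regions (red) and of the 58147 annotated regions at 2 CPM or more in DMSO (grey), as a percent of each set. Introns (44.2%) and distal intergenic DNA (38.5%) hold most of the silenced regions, and promoters within 1 kb hold 2.88% of them against 39.0% of the grey set.

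Being in the annotated table moved with level. At 2 to 3 CPM in the lowest DMSO library 3.32% of members and 27.5% of all regions were annotated, and at 6 to 11 CPM 72% and 92.9%. Promoter classes made 0% of 9 annotated members at 2 to 3 CPM, 20% of 40 at 3 to 4 CPM, 2.70% of 37 at 4 to 6 CPM and 5.56% of 18 at 6 to 11 CPM. Among annotated regions of the same bands they made 40.5%, 40.2%, 41.1% and 47.1%. The input also differed, with a median of 7 reads in members and 13 in the 81321 regions, and at 2 to 3 CPM 7 against 10. The part of level and input in the annotation was not tested beyond these bands.

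Position in RefSeq genes needed no annotated table. Of all 442 members, 153 (34.6%) were centred inside a protein-coding gene, against 58.5% of the 81321 regions. At 100 kb or more from any protein-coding gene were 138 members (31.2%), against 8.98%. For regions outside genes the median distance to the nearest gene was 92.1 kb for members and 22.1 kb for the 81321. The opposite rule gave 36.5% inside genes and 33.9% at 100 kb or more, and the difference from the silenced regions was not tested. The members had 328 different nearest protein-coding genes, and 118 genes held a member.

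By chromosome, 23 of the 1335 regions of chromosome 13 at 2 CPM or more in DMSO were members (1.72%), as were 33 of 2905 on chromosome 4 (1.14%). The lowest shares were 6 of 3633 on chromosome 19 (0.165%) and 5 of 2106 on chromosome 22 (0.237%). These are counts of regions that are in part neighbours and are given as a description.

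Of the 10 members in promoter classes of the annotated table, 3 lay within 1 kb of a start site. They were those of SCOC, SEL1L2 and SNORD114-24. The members on a RefSeq promoter window were others, so this class leaves out some members at RefSeq start sites. The SCOC member (chr4:140256008-140256509), at a gene linked to autophagy, had 4.25, 7.07 and 5.43 CPM in the DMSO libraries, 0.452, 0.216 and 0.449 with osimertinib alone and 0.795, 0.316 and 0.319 in the combination. The member of SNORD114-24 (chr14:100984620-100985121), a small nucleolar RNA of the imprinted cluster on chromosome 14, had 3.72, 6.21 and 5.996 CPM in DMSO and 0.397, 0.631 and 0 in the combination. The member of SEL1L2 (chr20:13930503-13931004) had 3.19, 9.27 and 5.88 CPM in DMSO and 0.795, 0.736 and 0.319 in the combination. All 3 were called lower than DMSO in the combination, with log2 fold changes of -3.63 to -3.09 and edgeR adjusted p of 0.00414 to 0.00764.

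Gene lists of pathways studied in EGFR inhibitor persisters were read against the members' assigned genes. Of 9 lists, 2 held assigned members: NF-kappaB factors and targets, with the 2 at MIR146A of 119 annotated regions, and matrix proteases, collagens and integrins, with the 3 at MMP16 of 225. Those are 1.68% and 1.33%, against 0.154% of all annotated regions. Each share rests on neighbouring regions of a single locus, and by nearest gene the NF-kappaB list held 0 of 164 regions. Nothing about the lists is read from these shares. The lists of ERK output and feedback genes, EGFR family and ligands, AP-1 factors, lung lineage genes, epithelial and mesenchymal genes, YAP and TAZ targets, and G1 cyclins, kinases and inhibitors held 0, of 57 to 372 annotated regions each. At the share over all annotated regions a list of this size would hold few or no members, so nothing is read from a count of 0.

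By nearest protein-coding gene the ERK output and feedback list had 8 members out of 508 regions at 2 CPM or more in DMSO. They lie near DUSP4 and DUSP6, which encode phosphatases of ERK, near PHLDA1 and SPRY4, and near or in SPRED2, which encodes an inhibitor of the RAS pathway. Near DUSP6 the members chr12:89067103-89067604 and chr12:89135653-89136154 lay 280 kb and 211 kb away. The first had 5.10, 3.63 and 3.05 CPM with DMSO, 0.452, 0.324 and 0.336 in the osimertinib DTP libraries and 0.298, 0.316 and 0 in the combination. The member inside SPRED2 (chr2:65316834-65317335) had 3.08, 2.68 and 2.49 CPM in the DMSO libraries, 0.452, 0.216 and 0.449 with osimertinib alone and 0.0994, 0.631 and 0.160 in the combination. Except at SPRY4, these members stayed at 0.639 CPM or less in every combination library.

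The list of EGFR family genes and ligands had 3 members of 232, all near BTC, which encodes the EGFR ligand betacellulin. The strongest (chr4:74635701-74636202, 109 kb from BTC) had 3.19, 7.17 and 4.86 CPM with DMSO, 0.452, 0 and 0.224 in the osimertinib DTP libraries and 0.0994, 0.105 and 0.160 in the combination. AP-1 factors had 1 member of 162, which lies 380 kb from MAF, and lung lineage genes had 1 of 187, which lies 125 kb from SOX9. The SOX9 member (chr17:71995741-71996242, assigned to LINC01152) had 6.49, 9.94 and 6.56 CPM in the DMSO libraries, 0.113, 0 and 0.224 with osimertinib alone and 0.298, 0.421 and 0.319 in the combination.

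The list of matrix proteases, collagens and integrins had 6 of 316, in MMP16, ITGA2 and ITGA6, the integrins being receptors for collagen and laminin. The 2 adjacent members in ITGA6 (chr2:172448760-172449261 and chr2:172449280-172449781) had 2.45, 3.35 and 4.53 and 3.08, 3.92 and 4.64 CPM in DMSO. In the combination they had 0.199, 0.421 and 0 and 0.397, 0.316 and 0.160 CPM. The member in ITGA2 (chr5:53005085-53005586) had 3.40, 2.58 and 2.94 CPM with DMSO, 0.452, 0 and 0.224 in the osimertinib DTP libraries and 0.397, 0.421 and 0.160 in the combination. The remaining lists, epithelial and mesenchymal genes, YAP and TAZ targets, NF-kappaB genes and G1 regulators, had 0 members of 225, 479, 164 and 143 regions by nearest gene. Over all genes the share was 0.544%.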

How the data were processed

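The members and gene lists were chosen with earlier results of these data known. The submitters' processing notes name BWA 0.7.17, MACS2 2.2.6, featureCounts 2.0.0, ChIPseeker 1.29.1 and build hg38 without their roles, and whether duplicates were removed is not given in the sources used here. The authors deposited raw read counts per region for 9 H3K27ac libraries and 1 input, an annotated subset of the same counts, and a peak list per library. The deposited peak lists give fold enrichment and −log10 p-values and q-values, and peaks were used by overlap of at least 1 bp; −log10 p served to check that each list followed its own count column best. The filter behind the annotated subset is not given in the sources used here.

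CPM was computed from column totals. Counts were fitted with edgeR 4.0.16 (quasi-likelihood, robust, TMM, filterByExpr, R 4.3.3) on the 9 libraries with a mean per group, and p-values were adjusted (Benjamini-Hochberg) over all regions tested. The members near ID1 and ABCG2 were named after their values were seen. The same comparisons were repeated with DESeq2 1.42.0, with plain library sizes, unfiltered, on the 6 libraries of each comparison, with a replicate block and leaving out each library. Genes are the nearest RefSeq protein-coding genes (GRCh38.p14) where the annotated table gives none, and 82 of the 84 genes it assigns to members were found in RefSeq.

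Named regions were the 12 highest in their lowest DMSO library (1 per gene), the 5 largest groups, the 6 highest in their lowest combination library, those of listed genes, promoters within 1 kb, those on a RefSeq promoter window and 3 beside each threshold. A few of these are not reported here. No column of per-sample values was left out. No genome was used here, so the planned motif search over whole regions was not made. Counting error in CPM is set by depth, since 1 read is 0.0956 to 0.160 CPM. PCR copies are not told apart from independent molecules, so depth sets counting error only.

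Replicate numbers were checked for pairing: deviations from the group means of same-numbered libraries correlated at 0.33, 0.35 and 0.32 between osimertinib DTP and DMSO, at -0.02, 0.55 and 0.36 between the combination and DMSO, and at 0.24, 0.03 and -0.24 between the combination and osimertinib DTP.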

Additional observations from a re-analysis of the deposited data

How the results depend on the processing

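The number of regions moved most with the thresholds. At 3 CPM in DMSO and 0.25 CPM in osimertinib DTP 32 regions passed, all of them members, at 1 CPM for both 4173 passed, and among annotated regions alone 104. Leaving out a library gave 475 to 1204. The share of members under 0.5 CPM in all combination libraries was 62.7% with TMM-scaled CPM, 55.8% over annotated members and 72.9% to 78.3% without 1 of the combination libraries. The members called lower in the combination than in DMSO numbered 216 to 438 with a library left out, lowest without DMSO replicate 2 (216) and DMSO replicate 3 (275), and the members called lower in osimertinib DTP than in DMSO 63 to 442. For the latter the counts were 63 without DMSO replicate 2, 216 without DMSO replicate 3, and 285, 224 and 206 without osimertinib DTP replicates 1, 2 and 3. The causes were not tested.

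With the replicate block, 412 members were called lower in the combination than in DMSO and 428 in osimertinib DTP than in DMSO. In the combination against osimertinib DTP 0 were called. The block thus changed none of these counts by over 1.5 times. What the correlations of same-numbered libraries come from, a pairing or a shared library quality, was not tested. In every alternative run 0 members were called in the combination against osimertinib DTP, with a median log2 fold change of 0.01 to 0.34. In the fit of those 6 libraries alone no member passed the filter, which left no value. Against DMSO the median was -4.06 to -3.62. Of 532 values against DMSO, 503 kept direction and side of the threshold, 23 lost the call, 6 gained it and 0 changed sign. They cover the 38 members named by DMSO level, largest groups, combination level or promoters within 1 kb. Members named only by a gene list were left out. The 78 values against osimertinib DTP of the 6 named for their combination level kept sign and stayed uncalled. Members were chosen as high in DMSO and low in osimertinib DTP, and these 6 as high in the combination. The kept signs thus follow at least in part from the choice and are no independent support. The counts of reads limit the floor: 3 to 5 reads are the most a library can have under 0.5 CPM, so levels below it were not told apart at this depth.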
